A study of Homo sapiens with 8 samples.

Results

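Canonical histone genes lie in clusters and encode the linker histone H1 and the core histones H2A, H2B, H3 and H4. The 73 histone cluster genes described here are the entries of the deposited table whose symbol begins with HIST1H, HIST2H, HIST3H or HIST4H, of 26475 genes in all. MOLM-13, an established human acute myeloid leukemia line with a KMT2A-AF9 fusion (genotype WT in the labels), was treated with DMSO, the vehicle, with VTP50469, which blocks the binding of Menin to KMT2A, with WM119, an inhibitor of the acetyltransferase KAT6A that the methods spell WM1119, or with both (VTP50469+WM119, the combination). Each of the 4 groups has 2 bulk RNA libraries, 8 in all. All groups come from a single cell line. The sources used here give neither doses nor times. The methods describe drug experiments in general as done in independent biological replicates, more of them than the libraries per group here, and neither they nor the labels say which cultures these RNA libraries came from. The p-values therefore measure only the spread between these libraries, which may be technical.

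Most genes of these clusters are active in S phase, when new chromatin is packed. Their transcripts lack introns and usually end in a conserved stem-loop, which is bound by the protein SLBP, in place of a poly(A) tail. Some members also make polyadenylated transcripts, and a separate set of genes outside the clusters encodes replacement histones, which are polyadenylated and used throughout the cell cycle. The sources used here do not say whether polyadenylated RNA was selected for these libraries.

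The clusters hold many near-copies. Of the 73 genes, 56 lie in the HIST1 cluster on chromosome 6, 13 carry HIST2 symbols and 3 carry HIST3 symbols on chromosome 1, and 1 is on chromosome 12 (RefSeq positions, GRCh38). RefSeq lists 70 as coding and 3 as pseudogenes. The median identity of coding sequences over pairs of genes was 68.6% within H1, 85.1% within H2A, 89.4% within H2B, 85.3% within H3 and 83.5% within H4. In 4 pairs the coding sequences were identical, namely HIST1H4J with HIST1H4K, HIST2H2AA3 with HIST2H2AA4, HIST2H3A with HIST2H3C, and HIST2H4A with HIST2H4B. Over whole transcripts these pairs differed at 4, 1, 4 and 0 bases.

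The stem-loop is the feature that marks these transcripts. The histone stem-loop motif, here GG, any 3 bases, TT, any base, T, any base, A, any 3 bases and CC, was searched on the transcribed strand within 100 bases after the stop codon. It matched 70 of the 70 coding members and 91 of 19943 coding genes in all (0.456%), and it matched no member on the opposite strand. Such a match is a description of the reference and not a measured site. The sequences below are from the RefSeq positions on GRCh38 and are shown because the results turn on these genes. Capitals mark the 4 bases of the loop.
HIST1H2BK: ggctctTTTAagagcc
HIST1H2BH: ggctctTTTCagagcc
HIST1H4J: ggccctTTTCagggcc
HIST1H4K: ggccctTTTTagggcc
HIST2H2AC: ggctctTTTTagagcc
The form of HIST1H2BH was shared by 40 members of the H1, H2A, H2B and H3 classes. The forms of HIST1H4J and HIST1H4K occurred in 10 and 4 members, all of them H4 genes. These forms differ only within the loop, and in both genes the motif starts 22 bases after the stop codon of an identical coding sequence.

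The coding sequences show how alike the copies that share counts are. HIST1H4J (chr6:27824092-27824480, plus strand) and HIST1H4K (chr6:27831174-27831560, minus strand) each have a coding sequence of 309 bases, the first 90 of which read the same in both. The H2A genes HIST2H2AA4 (chr1:149851061-149851594, plus strand) and HIST2H2AC (chr1:149886918-149887411, plus strand) differ at 2 of their first 90 coding bases and at 21 positions over the whole coding sequence. Capitals mark the bases at which the H2A genes differ.
HIST1H4J and HIST1H4K: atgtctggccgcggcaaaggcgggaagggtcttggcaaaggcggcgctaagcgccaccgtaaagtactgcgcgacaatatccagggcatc
HIST2H2AA4: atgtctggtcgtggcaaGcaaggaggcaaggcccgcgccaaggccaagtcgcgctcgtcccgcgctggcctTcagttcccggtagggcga
HIST2H2AC: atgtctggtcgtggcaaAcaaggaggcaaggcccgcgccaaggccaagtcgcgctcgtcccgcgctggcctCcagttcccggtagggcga

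The libraries held 18092906 to 23634468 counts each, and the 73 genes together took 517 to 778 of these. Combination replicate 2 stood apart from the other 7 libraries. Among genes with a mean of 5 to 30 counts in the other libraries, 23.4% were at 0 in combination replicate 2 against 2.73% to 4.39% in the others. For histone cluster genes in that range the share at 0 was 44.8% (13 of 29) in combination replicate 2 and 6.67% to 13.8% elsewhere, copies included. The log2 difference from DMSO fell with transcript length across 12113 genes in combination replicate 2 (Spearman -0.52) and in WM119 replicate 1 (-0.49), against -0.27 to 0.09 in the other 4 treated libraries. Tested histone cluster genes are short, with a median of 487 bases against 3206 over all genes tested. Values from a fit with an offset for length, and from fits without a combination library, stand beside some of the results that they move by over 1.5 times or whose call they change. A change printed without such values is not shown to be stable. The myeloid markers CD33, FLT3, MEIS1, HOXA9, SPI1 and LYZ had counts in all 8 libraries, and 4 of 4 erythroid and 4 of 4 epithelial markers were at 0 in all of them. The 4 T and NK markers summed to 58.0 to 74.2 CPM (counts per 1000000 counts of the library) outside the combination and to 32.3 and 60.8 CPM in it, mostly from NCAM1 (31.1 to 72.1 CPM), with CD3E at 0 in every library. The 4 B markers summed to 0.486 to 0.804 CPM outside the combination and to 1.52 and 2.76 CPM in it, and their part in the results was not tested.

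**Figure D1:**
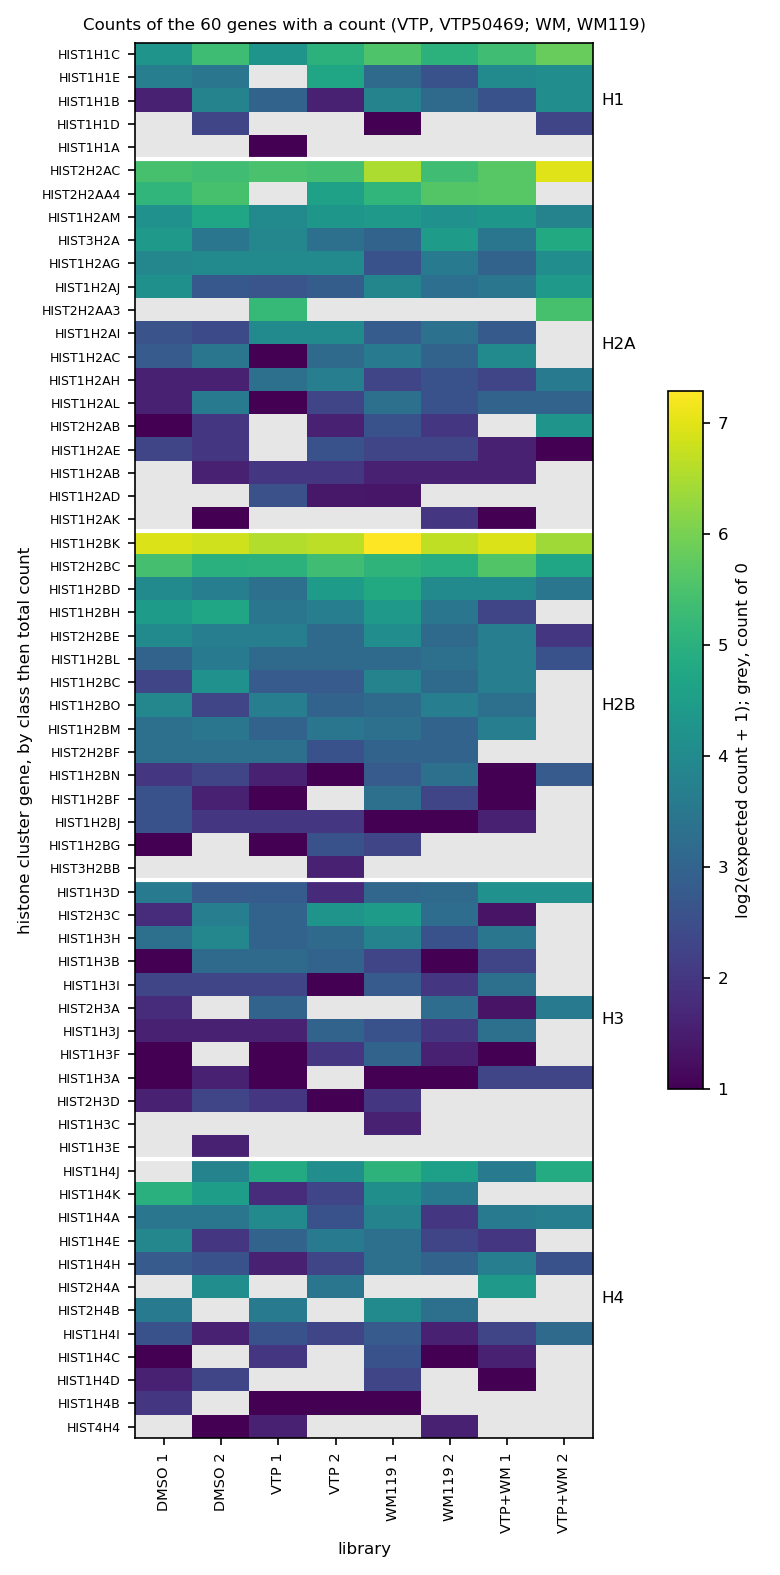
Expected counts of the 60 histone cluster genes with a count, as log2(count + 1) in each of the 8 libraries, ordered by class and then by total count, with a count of 0 in grey. Combination replicate 2, in the last column, has 46 of the 73 genes at 0, against 21 to 28 in the other libraries.

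Histone cluster genes were measured at low levels. Of the 73, 60 had a count in at least 1 library and 31 passed the filter on low counts that the test applies, namely 3 of 6 H1, 10 of 18 H2A, 9 of 20 H2B, 3 of 14 H3 and 6 of 15 H4 genes. The summed level was 32.5 and 30.3 CPM in DMSO, 26.1 and 24.5 CPM with VTP50469, 32.9 and 26.7 CPM with WM119, and 26.6 and 31.9 CPM in the combination. Both VTP50469 libraries lay below both DMSO libraries, while the WM119 and combination libraries overlapped DMSO. In bulk RNA, fewer cells in S phase and less RNA per cell cannot be told apart.

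Levels can be compared between genes only per length, here as CPM per kilobase of transcript, averaged over the 8 libraries with copies that share counts summed. HIST1H2BK, an H2B gene of the HIST1 cluster, led with 10.8 CPM per kilobase (8.93 to 13.6). Its length was taken as 0.495 kilobases, although its RefSeq span is 8566 bases. Its place in this order therefore depends on the transcript chosen. The H2A genes HIST2H2AA3, HIST2H2AA4 and HIST2H2AC together had 9.18 (5.52 to 17.6), so their range overlapped that of HIST1H2BK. HIST1H4J with HIST1H4K followed at 3.70 (1.23 to 5.34), below the lowest library of the H2A genes. The pseudogene HIST2H2BC at 2.89 (2.33 to 4.0) and HIST1H1C at 2.30 (1.24 to 4.14) came next, and the ranges of these last 3 overlapped. Several replacement histone genes stood far higher on the same scale. H2AFZ, which encodes the H2A.Z variant, had 885 CPM per kilobase (786 to 1290), H2AFY, encoding macroH2A, had 500.0 (417 to 595), and H3F3B, encoding H3.3, had 236 (220.0 to 259). H3F3A had 13.1 CPM per kilobase (5.43 to 31.9), a range that overlapped that of HIST1H2BK. Others were low, with 1.93 for H1F0, the replacement linker histone, and 0.136 for H3F3C.

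At the low end, 13 genes had no count in any library. They include HIST1H1T, HIST1H2AA, HIST1H2BA and HIST3H3, which are known for expression in the testis, and HIST1H2BB, HIST1H2BE, HIST1H2BI, HIST1H3G, HIST1H4F, HIST1H4G and HIST1H4L together with the pseudogenes HIST1H2APS1 and HIST2H2BA. A count of 0 allows up to 3 counts, or 0.127 to 0.166 CPM per library, for counting error only. Among the sparsest genes with any count, HIST1H1A had 1 count in all 8 libraries together, HIST1H3C, HIST1H3E and HIST3H2BB had 2 each, and HIST1H2AK and HIST4H4 had 5 each.

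The first question was whether either inhibitor alone changed these genes. No histone cluster gene was called at an adjusted p under 0.05 with VTP50469, where 0.169% of all tested genes were called (edgeR quasi-likelihood test, Benjamini-Hochberg), nor with WM119, where 0.0% were. At an unadjusted p under 0.05 there were 2 members with VTP50469, against 6.75% of all tested genes, and 0 with WM119, against 4.94%. DESeq2 called 0 members in both comparisons, against 1.54% and 0.62% of the 13223 genes to which it gave an adjusted p, 41 members among them. Fitted log2 changes of the 31 tested members had a median of -0.29 with VTP50469, with 26 below 0, and of -0.22 with WM119, with 21 below 0. With no count filter the median over the 60 members with a count was -0.35 with VTP50469 and -0.03 with WM119 (33 of 60 below 0), and the WM119 median was -0.09 without DMSO replicate 1 and -0.02 without WM119 replicate 2. Over all tested genes the medians were 0.0 and 0.01. HIST1H4K, described next, was called lower with VTP50469 only in a fit of those 2 groups or without a combination library. In the fit of those 2 groups its log2 change was -3.22 (adjusted p = 0.00603, edgeR), where 11.1% of all tested genes were called. It was -3.23 without combination replicate 1 or without replicate 2, and -3.24 with all libraries (adjusted p = 0.208, edgeR). Summed with its identical copy HIST1H4J, the log2 change with VTP50469 was -0.51 (SE 0.61, adjusted p = 0.999, edgeR). Both VTP50469 libraries were below both DMSO libraries for 8 of 31 members (25.8%), against 28.4% of all tested genes, and above for 3 (9.68%), against 26.5%. For WM119 these figures were 7 members (22.6%) against 21.5%, and 2 (6.45%) against 23.5%. The comparisons with DMSO share the same 2 vehicle libraries.

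The second question was what the combination did. A single member was called, HIST1H4K, an H4 gene, which was lower in the combination than in DMSO, where 3.44% of all tested genes were called lower and 9.29% in either direction. HIST1H4K had 31 and 21.9 expected counts in DMSO, 2.49 and 3.99 with VTP50469, 16.6 and 10.7 with WM119, and 0 and 0 in the combination. Taking 3 counts for the combination libraries together as the floor, this is at least 19.0-fold lower in the combination than in DMSO (adjusted p = 0.0141, edgeR). DMSO and combination libraries did not overlap. The call held with either combination library left out (adjusted p = 0.00343 and 0.00928, edgeR) and missed the threshold without DMSO replicate 1 (0.135), DMSO replicate 2 (0.0959), VTP50469 replicate 2 (0.05004), WM119 replicate 1 (0.0513) or WM119 replicate 2 (0.0508). It also missed in a fit of the DMSO and combination libraries alone (0.133).

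That difference was smaller and was not called once the identical copy was added. HIST1H4J had 0 and 13.1 counts in DMSO, 27.5 and 16 with VTP50469, 32.4 and 22.3 with WM119, and 11 and 28 in the combination. It held all counts of the pair in both combination libraries, and none of them in DMSO replicate 1. Their sum was 31 and 35 counts in DMSO, 30 and 20 with VTP50469, 49 and 33 with WM119, and 11 and 28 in the combination. In CPM the sum was 1.713 and 1.703 in DMSO and 0.477 and 1.513 in the combination. Both combination libraries thus stayed below both DMSO libraries. Tested as 1 feature, the pair had a log2 change of -0.64 in the combination (SE 0.62, adjusted p = 0.483, edgeR). The summing was chosen after the counts had been seen, and the summed fit was not repeated with a library left out. The call of HIST1H4K is uncertain, as it is for any gene that shares reads with an identical coding sequence.

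The same kind of division ran through the clusters. Of 584 values, 42 were not whole numbers, and each of the 42 added up to a whole number, within 0.002, with the value of another member in the same library. These values belonged to 5 distinct pairs, which are HIST1H4J with HIST1H4K, HIST2H3A with HIST2H3C, HIST1H2AI with HIST1H2AJ, HIST2H2AA4 with HIST2H2AC, and HIST1H2AD with HIST1H3D, whose RefSeq spans overlap on the same strand. Among the 4 pairs with identical coding sequence there were 31 cases of a pair with counts in a library. In 22 of these all counts stood on 1 copy, in 4 they were divided equally, and in 5 they were divided otherwise. HIST2H2AA3 had 36 counts in VTP50469 replicate 1, 43 in combination replicate 2 and 0 in the other 6 libraries, while HIST2H2AA4 had 0 in exactly those 2 libraries and 23.3 to 49.4 in the others. Replicates of the same group thus stood on different copies.

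**Figure D2:**
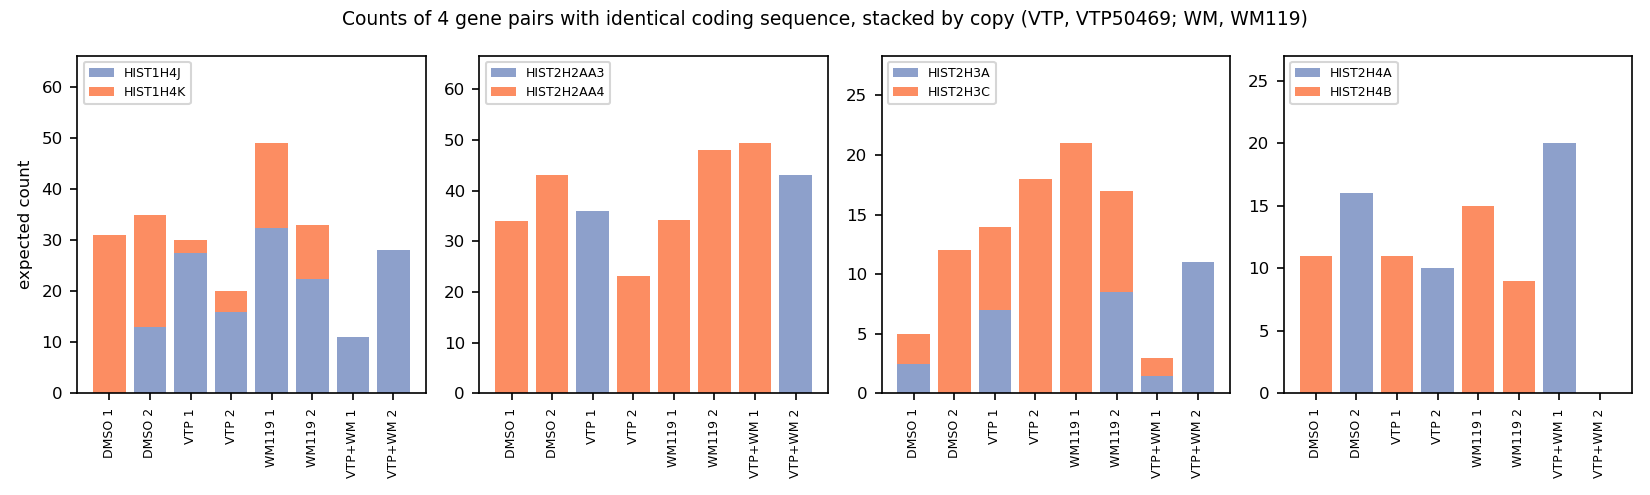
Expected counts of 4 gene pairs with identical coding sequence in each library, stacked by copy. For HIST2H2AA3 and HIST2H2AA4 the whole count stands on 1 of the copies in each of the 8 libraries, and the copy differs between replicates of VTP50469 and of the combination.

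When the copies that share counts were summed, 26 features were tested and the call passed to another gene, where 3.47% of all features were called lower and 9.37% in either direction. HIST1H2BH (chr6:26251614-26252075, plus strand), an H2B gene, had 21 and 25 counts in DMSO, 10 and 12 with VTP50469, 20 and 10 with WM119, and 4 and 0 in the combination. Every treated library lay below both DMSO libraries, and the combination was lowest. With members as deposited its log2 change in the combination was -3.50 (SE 0.96, adjusted p = 0.0502, edgeR), which did not pass the threshold. With copies summed the adjusted p was 0.04998 (edgeR, log2 change -3.50). DESeq2 called it lower (log2 change -3.60, adjusted p = 0.00761). Without combination replicate 2 the log2 change was -2.72 and without combination replicate 1 it was -7.58, a value set by the 0 in the remaining library. In a fit of the DMSO and combination libraries alone the adjusted p was 0.234, and with 1 library outside the combination left out at a time it was 0.112 to 0.260 (edgeR). With VTP50469 alone its log2 change was -1.18 (adjusted p = 0.999) and with WM119 alone -0.80 (adjusted p = 1.0).

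**Figure D3:**
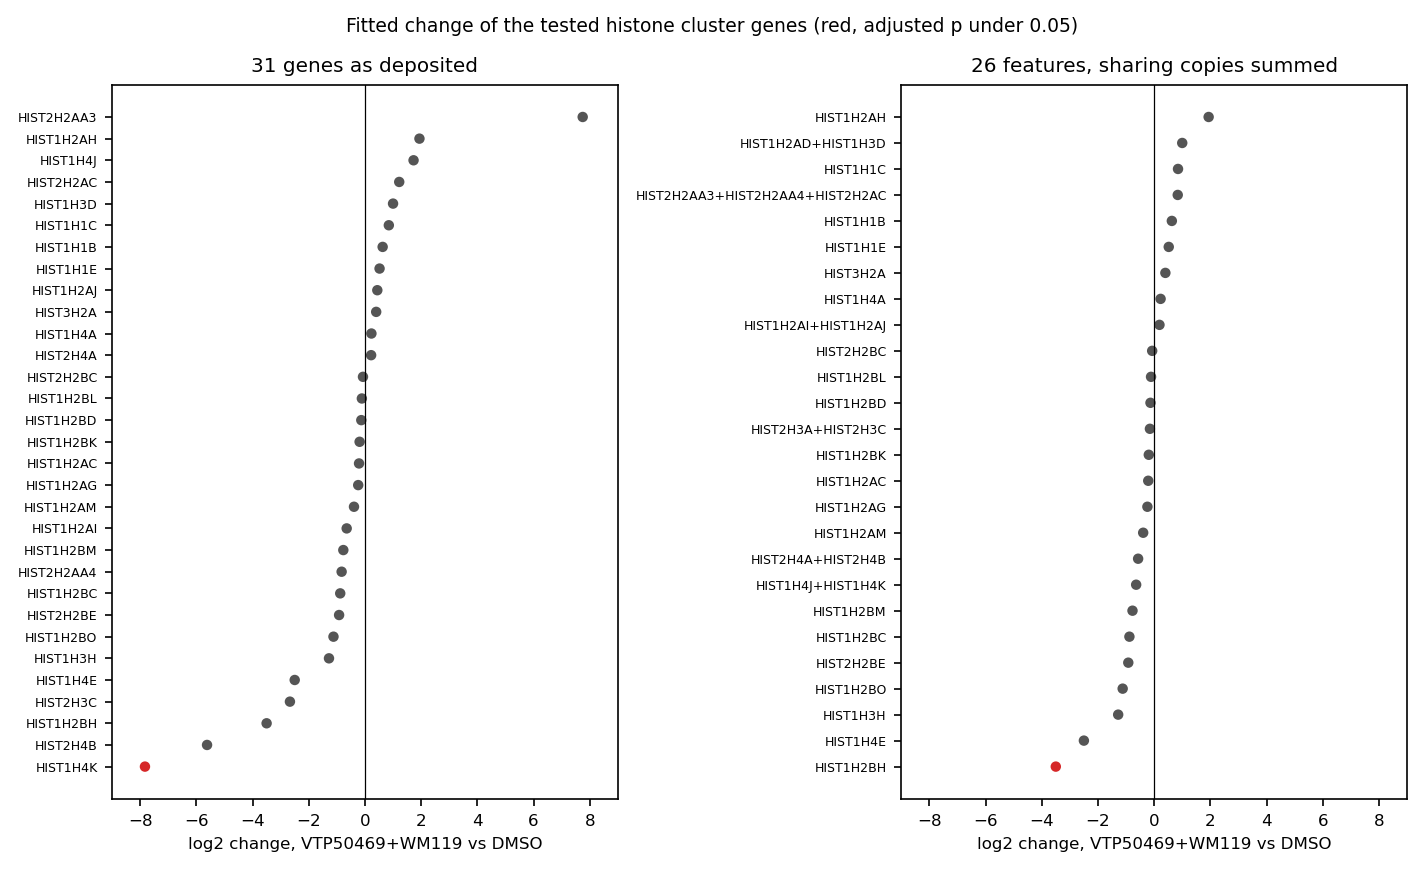
Fitted log2 change from DMSO to the combination for the 31 tested members as deposited (left) and for the 26 features after copies that share counts were summed (right), with calls at an adjusted p under 0.05 in red. HIST1H4K at -7.83 is called on the left only, and HIST1H2BH at -3.50 on the right only.

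HIST2H2BF, an H2B gene whose annotated transcripts span 29682 bases, did not pass the filter. It had 9 and 9 counts in DMSO, 9 and 5 with VTP50469, 7 and 7 with WM119, and 0 and 0 in the combination, which is at least 6.45-fold lower than DMSO against the floor of 3 counts. With no count filter edgeR tested HIST2H2BF among the 60 members with a count and did not call it. That fit called 1 member in the combination, HIST1H4K, against 7.2% of all genes tested. DESeq2 was run on the 60 members with a count and gave an adjusted p to 39 of them. It called HIST2H2BF lower in the combination (adjusted p = 0.0147), and its 3 calls were HIST1H4K, HIST1H2BH and HIST2H2BF, where 7.58% of 12905 genes with an adjusted p were called lower and 17.7% in either direction. The edgeR fit without combination replicate 2 called the same 3 genes.

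Across the 31 tested members the median log2 change in the combination was -0.19, with 19 below 0, against 0.01 over all tested genes. With no count filter the median over the 60 members with a count was -0.07 (33 of 60 below 0), and with DESeq2 it was -0.08. The median was -0.04 without DMSO replicate 1, -0.18 without DMSO replicate 2, -0.25 without combination replicate 1 and -0.10 without combination replicate 2. With an offset for transcript length the median was -0.61, with 23 of 31 below 0, so the share of members below 0 depends on how length is treated. Both combination libraries were below both DMSO libraries for 8 of 31 members (25.8%), against 34.5% of all tested genes, and above for 2 (6.45%), against 24.8%. Without combination replicate 1, so that replicate 2 alone stood for the group, 4 members were called higher and 7 lower (32.4% of 34), against 60.8% of all tested genes. Without combination replicate 2 there were 3 called, all lower (8.82% of 34), against 14.5% of all tested genes.

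Linker histone genes were described by 3 tested members. HIST1H1C, which encodes H1.2, had 18 and 39 counts in DMSO, 18 and 32 with VTP50469, 46 and 32 with WM119, and 40 and 56 in the combination. Its log2 change in the combination was 0.85 (SE 0.51, adjusted p = 0.286, edgeR), with overlap between WM119 and DMSO and both combination libraries above DMSO in counts but not in CPM, where DMSO replicate 2 (1.90) exceeded combination replicate 1 (1.74). The log2 change was 0.27 without combination replicate 2, 0.46 without DMSO replicate 1, 1.38 without DMSO replicate 2 and 0.27 with the length offset. HIST1H1E, which encodes H1.4, had 12 and 10 counts in DMSO and 15 and 16 in the combination, with 0 and 25 in the VTP50469 libraries. HIST1H1B, which encodes H1.5, had 2 and 13 counts in DMSO and 5 and 16 in the combination. The class summed to 1.77 and 3.21 CPM in DMSO and 2.60 and 4.97 CPM in the combination, so the groups overlapped.

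Among H2A genes the leading locus was the group of HIST2H2AA3, HIST2H2AA4 and HIST2H2AC. Together they had 77 and 83 counts in DMSO, 80 and 65 with VTP50469, 125 and 88 with WM119, and 99 and 169 in the combination. Their log2 change in the combination was 0.84 (SE 0.43, adjusted p = 0.225, edgeR). In CPM they had 4.256 and 4.038 in DMSO and 4.295 and 9.133 in the combination, so the rise stood mostly in replicate 2. HIST2H2AC alone had 126 counts in combination replicate 2 against 40 to 90.8 in the other 7 libraries. Its log2 change was 1.22 (adjusted p = 0.231, edgeR), and it was 1.87 without combination replicate 1, 0.02 without combination replicate 2 and 0.46 with the length offset. HIST1H2AM had 17 and 25 counts in DMSO and 19 and 13 in the combination. HIST1H2AH had 2 and 2 counts in DMSO, 9 and 12 with VTP50469, 4 and 5 with WM119, and 4 and 11 in the combination, so every treated library was above DMSO, yet its log2 change of 2.20 with VTP50469 (SE 0.95, adjusted p = 0.690) did not pass. The H2A class summed to 9.12 and 8.51 CPM in DMSO and 7.90 and 15.2 CPM in the combination.

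**Figure D4:**
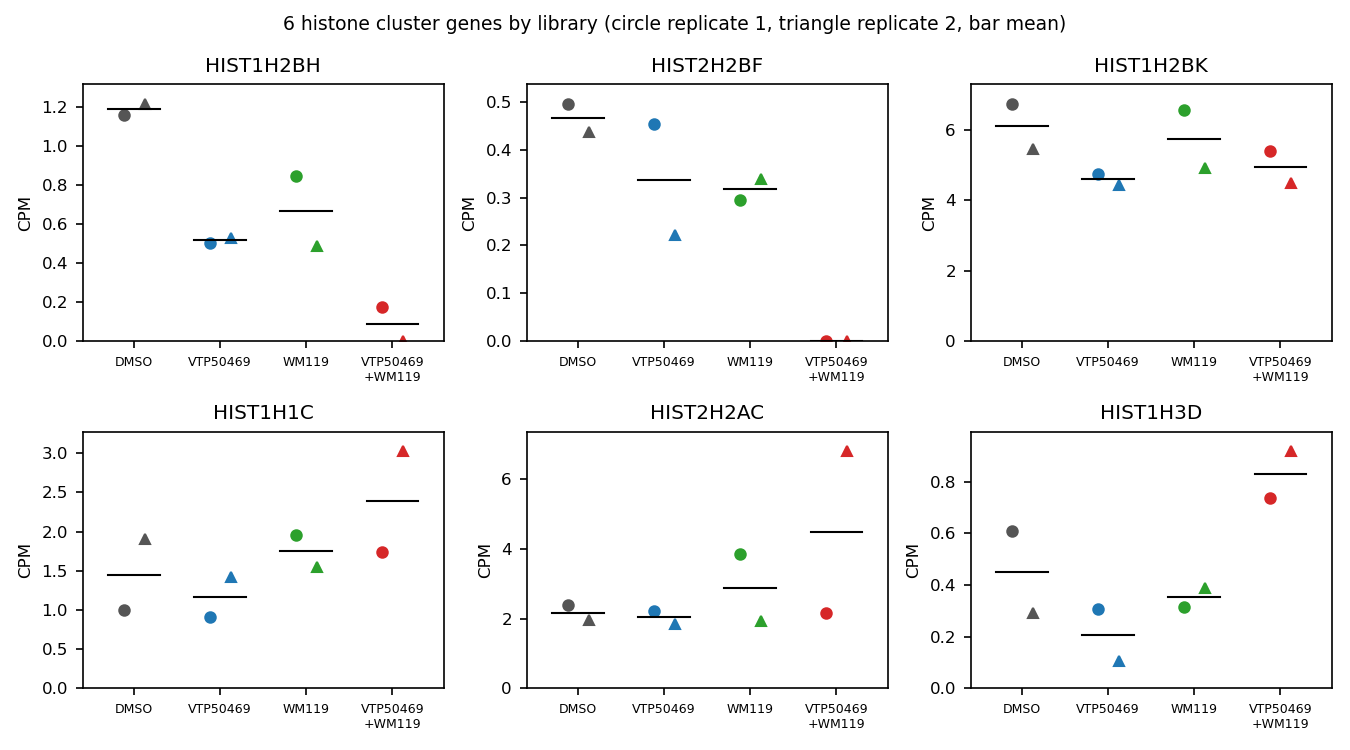
CPM of 6 histone cluster genes in each library, with circles for replicate 1, triangles for replicate 2 and bars for group means. HIST1H2BH and HIST2H2BF are lowest in the combination, and HIST2H2AC is high in combination replicate 2 only.

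H2B genes had the highest class sum in 7 of the 8 libraries, and H2A genes had it in combination replicate 2. HIST1H2BK held 43.9% to 49.4% of the H2B counts in those 7 libraries and 62.9% in combination replicate 2. This gene had 122 and 112 counts in DMSO, 94 and 100 with VTP50469, 155 and 101 with WM119, and 124 and 83 in the combination. In CPM both VTP50469 libraries (4.75 and 4.42) and both combination libraries (5.38 and 4.49) were below DMSO (6.74 and 5.45), and the log2 change in the combination was -0.19 (SE 0.24, adjusted p = 0.585, edgeR). It was -0.66 with the length offset, -0.30 with library sizes alone, -0.04 without DMSO replicate 1 and -0.35 without DMSO replicate 2. Its RefSeq span of 8566 bases overlaps HIST1H4I on the other strand, and the strand setting of the counting is not given. HIST1H2BD had 15 and 12 counts in DMSO and 15 and 10 in the combination. The pseudogene HIST2H2BC, whose span overlaps that of HIST2H4B, had 25 to 47 counts in every library. HIST2H2BE had 15 and 12 counts in DMSO and 12 and 3 in the combination. Several smaller members, HIST1H2BC, HIST1H2BM and HIST1H2BO, had 12, 12 and 9 counts in combination replicate 1 and 0 in replicate 2. The H2B class summed to 15.0 and 12.3 CPM in DMSO, 10.4 and 10.1 CPM with VTP50469, 13.4 and 10.7 CPM with WM119, and 10.9 and 7.13 CPM in the combination, where all VTP50469 and combination libraries were below DMSO.

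H3 genes were sparse. HIST1H3D had 11 and 6 counts in DMSO, 6.06 and 2.36 with VTP50469, 7.41 and 8 with WM119, and 17 and 17 in the combination. Its log2 change was 1.00 against DMSO (SE 0.66, adjusted p = 0.316, edgeR) and 2.19 against VTP50469 (SE 0.75, adjusted p = 0.210). Against VTP50469 it was 2.44 without combination replicate 1 and 1.92 without combination replicate 2. Summed with HIST1H2AD, with which it shares counts, the change against VTP50469 was 1.30 (SE 0.68, adjusted p = 0.334). HIST1H3H had 9 and 14 counts in DMSO and 10 and 0 in the combination. HIST2H3A and HIST2H3C together had 5 and 12 counts in DMSO, 14 and 18 with VTP50469, 21 and 17 with WM119, and 3 and 11 in the combination, a log2 change of -0.15 (SE 0.82, adjusted p = 0.903, edgeR). HIST2H3D, which differs from that pair, had 2 and 4 counts in DMSO and 0 and 0 in the combination. The class summed to 1.99 and 2.63 CPM in DMSO and 2.47 and 1.73 CPM in the combination.

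Apart from HIST1H4J and HIST1H4K, the H4 genes were low. HIST1H4A had 10 and 10 counts in DMSO and 11 and 12 in the combination. HIST1H4E had 14 and 3 in DMSO and 3 and 0 in the combination, a log2 change of -2.50 (SE 1.37, adjusted p = 0.207, edgeR) that was -1.73 without combination replicate 2, -6.19 without combination replicate 1 and -0.93 without DMSO replicate 1. The copies HIST2H4A and HIST2H4B, identical over the whole transcript, together had 11 and 16 counts in DMSO, 11 and 10 with VTP50469, 15 and 9 with WM119, and 20 and 0 in the combination. The H4 class summed to 4.59 and 3.70 CPM in DMSO, 3.84 and 2.43 CPM with VTP50469, 4.70 and 2.96 CPM with WM119, and 2.78 and 2.86 CPM in the combination, below both DMSO libraries. Class sums were not tested.

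**Figure D5:**
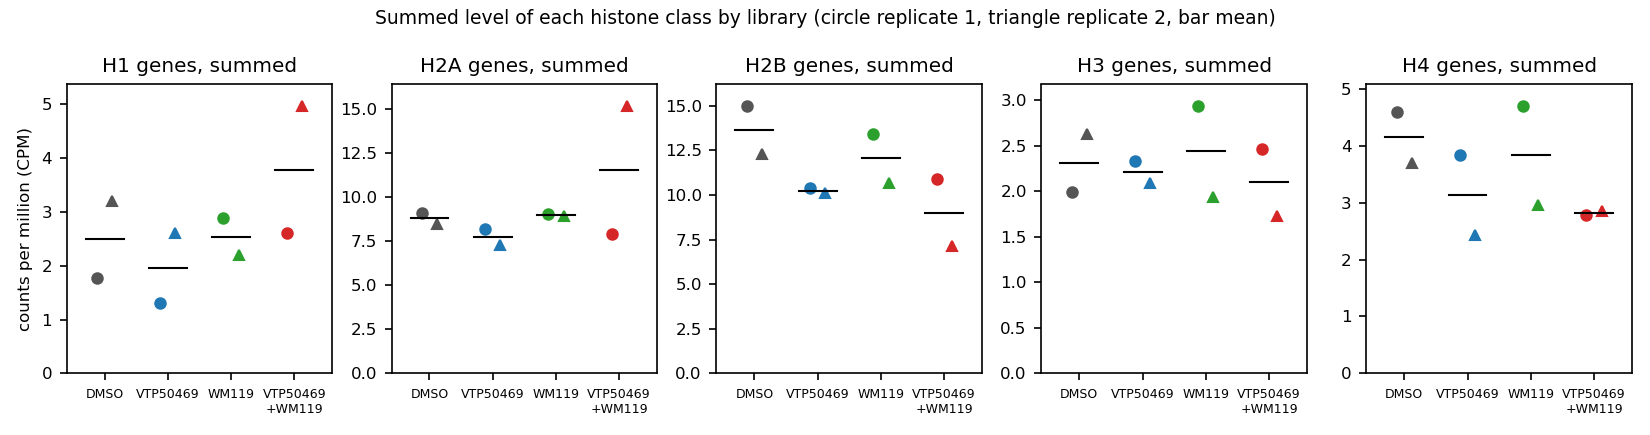
Summed CPM of each histone class in each library, with circles for replicate 1, triangles for replicate 2 and bars for group means. H2B and H4 sums of the combination lie below both DMSO libraries, and the H1 and H2A sums of combination replicate 2 lie above all other libraries.

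The combination was also compared with each inhibitor, and the interaction was tested, which asks whether the combination differs from the sum of the single changes on the log2 scale. No member was called against VTP50469, where 0.395% of all tested genes were called (edgeR), against WM119, where 1.43% were, or in the interaction, where 0.0% were. At an unadjusted p under 0.05 there were 5, 3 and 2 members, against 17.9%, 16.7% and 2.2% of all tested genes, and 2, 1 and 0 features when copies were summed. DESeq2 called 0, 1 and 0 members, against 5.3%, 5.53% and 0.0305% of the genes with an adjusted p, the 1 being HIST1H4K against WM119 (adjusted p = 0.00924). HIST1H2BH had a log2 change of -2.32 against VTP50469 (SE 0.99, adjusted p = 0.256, edgeR) and of -2.70 against WM119 (SE 0.98, adjusted p = 0.207). Without combination replicate 1 these were -6.40 and -6.78, values set by the 0 in the remaining library.

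Genes that act on histone transcripts and proteins were read from lists of known function. Among replacement histones 0 of 10 tested genes were called in the combination, against 9.29% of all tested genes. At an unadjusted p under 0.05 there were 2, against 30.3%. H2AFX, which encodes the H2A.X variant that is phosphorylated at DNA breaks, went from 140.0 and 154 CPM in DMSO to 187 and 234 CPM (log2 change 0.65, SE 0.19, adjusted p = 0.0790, edgeR). H2AFV, which encodes an H2A.Z form, had 247 and 254 CPM in DMSO and 312 and 335 CPM in the combination (log2 change 0.49, adjusted p = 0.0880). H3F3A had 7.67 and 6.77 CPM in DMSO but 5.81 and 34.1 CPM in the 2 combination libraries. The list had a median log2 change of 0.43, against 0.01 over all tested genes. This median and those of the lists below are from the fit of all libraries without the length offset.

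For histone gene transcription and 3' end processing, 0 of 17 tested genes were called in the combination, against 9.29% of all tested genes. At an unadjusted p under 0.05 there were 2, against 30.3%, and the median log2 change was -0.21. ZNF473, a component of the histone pre-mRNA processing machinery, had 56.1 and 55.3 CPM in DMSO and 44.3 and 24.8 CPM in the combination (log2 change -0.60, adjusted p = 0.124, edgeR). LSM11, a subunit of the U7 particle that guides that cleavage, had 28.0 and 30.5 CPM and 23.3 and 13.4 CPM (log2 change -0.58, adjusted p = 0.132). UPF1, a helicase of RNA decay, had a log2 change of -0.41 (adjusted p = 0.184). All 3 were lowest in combination replicate 2.

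Of 18 tested histone chaperones and importers, 1 fell in the combination and 0 rose, against 3.44% lower and 9.29% in either direction over all tested genes. At an unadjusted p under 0.05 there were 6, against 30.3% of all tested genes, and the median log2 change was -0.03. The gene that fell was IPO4, which carries H3 and H4 into the nucleus, at 173 and 180.0 CPM in DMSO and 118 and 84.0 CPM in the combination (log2 change -0.71, SE 0.13, adjusted p = 0.0244, edgeR). The chaperones ASF1A and ASF1B had changes of opposite sign that did not pass, -0.49 (adjusted p = 0.0662) and 0.50 (adjusted p = 0.0674). Of 20 tested S phase genes, 1 fell, 0 rose and 3 were at an unadjusted p under 0.05, against the same shares. The median was -0.07. CDC6, a replication licensing factor, was the gene that fell, at 132 and 137 CPM in DMSO and 95.4 and 80.3 CPM in the combination (log2 change -0.50, SE 0.11, adjusted p = 0.0411, edgeR). With the length offset CDC6 was not called (log2 change -0.27, adjusted p = 0.166). With 1 library outside the combination left out at a time, the adjusted p was 0.0708 to 0.208 for IPO4 and 0.104 to 0.278 for CDC6. MCM6 and UHRF1 had log2 changes of -0.45 (adjusted p = 0.0944) and -0.50 (adjusted p = 0.0947). The 5 cluster genes known for polyadenylated transcripts, HIST1H1C, HIST1H2AC, HIST1H2BD, HIST1H2BK and HIST2H2BE, had 0 calls, against 9.29% of all tested genes, and a median of -0.19. No gene of these lists was called in the other 5 comparisons by edgeR.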

How the data were processed

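Bulk RNA of 8 MOLM-13 libraries was sequenced. STAR 2.5.1b and the build hg38 are named in the submitters' processing notes, and the authors deposited expected counts per gene without normalization. Counter, strand setting and annotation are not named in these sources. Labels and methods name different RNA and library kits.

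After rounding, the counts of all 4 groups entered 1 quasi-likelihood fit of edgeR 4.0.16 (R 4.3.3), scaled by TMM and filtered by filterByExpr, with Benjamini-Hochberg adjustment over 12401 tested genes and a threshold of 0.05. The scripts were tested on simulated data. Alternatives were DESeq2 1.42.0, other scaling and filters, a replicate block, fits of the compared groups, an offset for length, and leaving out each library. A fit with copies summed was chosen after the values had been seen. Per-length values and sequences use GENCODE 44 transcripts, and gene positions are from RefSeq, which matched 73 of 73 genes. CPM uses library totals, and floors of 3 counts cover counting error only.

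Members and lists were chosen with earlier results of these data known. Named genes were all called members, the 3 tested members of each class with the highest mean CPM, testis-type and filtered members by counts, the copies of HIST1H4K, and, per list, the 3 genes ranked first by p in the combination against DMSO. Other genes are named where a count or a result turned on them, after their values were seen.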

Additional observations from a re-analysis of the deposited data

How the results depend on the processing

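The number of members called in the combination against DMSO was 1 and became 3 with DESeq2, 2 with RLE factors, 2 with an offset for length, 0 with at least 10 counts in every library (which kept 5 members) and 0 in a fit of only the compared groups. Over all genes the shares called were 9.29%, 17.7%, 9.33%, 21.7%, 9.91% and 0.0%, in the same order. For the combination against WM119 they were 5.53% with DESeq2 and 5.5% with the length offset. A fit of VTP50469 and DMSO alone called 11.1% of all tested genes. Leaving out each library gave 0 to 11, with 11 without combination replicate 1, 3 without combination replicate 2 and 0 without either DMSO library, VTP50469 replicate 2 or either WM119 library. Without combination replicate 1, 60.8% of all tested genes were called in this comparison, 54.2% against WM119, 56.6% against VTP50469 and 30.9% in the interaction, and without combination replicate 2 14.5% in this comparison. With an arm of 1 library, the lone sample is assumed to vary like the other groups. VTP50469 against DMSO went from 0 to 1 (HIST1H4K) in a fit of only these groups and ranged from 0 to 1 over libraries left out. WM119 against DMSO stayed at 0 in every alternative run. The combination against WM119 went from 0 to 1 with DESeq2 and with the length offset, and ranged from 0 to 12 over libraries left out. Against VTP50469 that range was 0 to 10, and for the interaction 0 to 1, the upper values again without combination replicate 1. Differences between replicates 1 and 2 correlated at -0.393 to 0.141 between groups. Length trends of single libraries enter these values, so they cannot tell whether the replicates were paired. A replicate block left the count at 1, with 4.26% of all tested genes called. IPO4 (adjusted p = 0.0623) and CDC6 (adjusted p = 0.100) were not called with that block by edgeR. CDC6 also missed it with the length offset (adjusted p = 0.166) and with no count filter (0.0679), and both genes missed the threshold in a fit of the compared groups and when any of the 6 libraries outside the combination was omitted. Summing copies reversed HIST1H4K with WM119 to 0.12 and HIST1H4J in the combination to -0.64. Log2 ratios of class sums to DMSO moved when the member with the highest counts was left out. They went from 0.03 to -0.13 for H2A with WM119 and from -0.14 to -0.55 for H3 in the combination. For H4 they went from -0.40 to -0.87 with VTP50469, from -0.11 to -0.56 with WM119 and from -0.55 to -1.07 in the combination. The H4 gene left out was HIST1H4J, and its identical copy HIST1H4K stayed in the sum. HIST1H4K held 100% and 62.6% of the pair in DMSO and 0% in the combination. These H4 moves therefore include the division of counts between the copies. Moves within the spread of replicates were from 0.02 to -0.42 for H1 with WM119, from 0.39 to 0.09 for H2A, from -0.60 to -0.89 for H2B and from 0.61 to 0.43 for H1 in the combination, and from -0.06 to 0.11 for H3 with VTP50469. Most members had few counts, and each group has 2 libraries, so a member that was not called is not shown to be unchanged.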
